A study of Mus musculus with 20 samples.

Results

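The ABC transporters are membrane proteins (and a few soluble relatives) that carry the ATP-binding cassette, and their mRNA was followed in mouse liver across a diet that causes steatohepatitis and across the genotype of Thbs1, the gene of thrombospondin-1 (TSP-1). The members were all protein-coding genes of the deposited table whose symbol is Abc, a subfamily letter from a to g and a number, with or without a closing letter. This gave 50 of the 38924 genes in the table, 16 in subfamily A, 10 in B, 10 in C, 4 in D, 1 in E, 3 in F and 6 in G. Bulk RNA-seq was done on liver of 20 male mice of the C57/BL6 background, bought at 5 weeks of age and acclimated for 1 week, with 5 mice in each of 4 groups after 12 weeks of feeding. NDWT were wild type (WT) mice on control chow and HFWT were WT mice on CDAHFD. CDAHFD is a high-fat chow without choline and with limited methionine, whose protein is replaced by defined L-amino acids. NDKO and HFKO were mice of a TSP-1 knockout stock on the control chow and on CDAHFD. The knockout is germline, so it is present in every cell of the animal. The study did not choose the members, and the classes used here are textbook roles: 5 canalicular exporters of bile salts, anions and drugs, 5 sterol exporters, 4 phospholipid transporters and 36 others.

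An ABC transporter binds ATP at a pair of nucleotide-binding domains and uses its hydrolysis to move a substrate across a membrane. In hepatocytes the canalicular membrane holds the exporters that form bile: Abcb11 for bile salts, Abcc2 for conjugated anions such as bilirubin glucuronide, Abcb4 for phosphatidylcholine and the Abcg5-Abcg8 heterodimer for cholesterol and plant sterols. The basolateral membrane holds exporters that return substrates to blood, peroxisomes and mitochondria have members of their own, and Abca1 and Abcg1 pass cholesterol to lipoproteins in hepatocytes and macrophages.

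Each library held 15641545 to 23276322 fragments assigned to genes, with group medians of 17800442 (NDWT), 20216988 (NDKO), 18843904 (HFWT) and 19057061 (HFKO). Thbs1 went against the genotype labels on control diet: its level was 0.058 to 0.326 FPKM (fragments assigned to a gene, scaled by its length in kilobases and by the library's total) in NDWT and 0.986 to 1.90 FPKM in NDKO, and on CDAHFD the ranges overlapped (3.46 to 6.10 in HFWT and 3.05 to 4.40 in HFKO). Reads outside a disrupted part of a gene can still be counted, so these values do not say which animals carried the allele. The mitochondrial tRNA genes mt-Tg and mt-Tr had 0 fragments in all 10 libraries labelled TSP-1 null and at least 1 in all 10 labelled WT, so the libraries do fall into 2 sets as labelled. Genotype differences are therefore given below for libraries labelled TSP-1 null. The hepatocyte markers were high in every group (summed level of 7 markers 23461 to 33615 FPKM in HFWT, the lowest group, and 30107 to 42662 in HFKO).

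Of the 50 members, 40 had more than 0.5 FPKM in at least 5 libraries and were tested. The other 10 were Abca4, Abca12, Abca13, Abca14, Abca15, Abca16, Abca17, Abcb5, Abcc8 and Abcg4, none of which reached 0.139 FPKM in a library except Abcg4 at that value, and Abca12 and Abcb5 had no fragment in any library. Abcb1a, Abcb1b, Abcc1, Abcc4 and Abcc12 passed through the CDAHFD libraries (fewer than 5 control libraries were above the limit), so a diet difference in these 5 was favoured by the filter. On control diet in WT the highest mean levels per length were those of Abcd3 (226 FPKM), Abcb4 (172), Abcc2 (97.7) and Abcb11 (74.8). Abcc3 (46.5), Abcc6 (42.0) and Abca6 (40.5) came next, with ranges that overlapped among the 3. The sum over all 50 members was 972 ± 30.7 FPKM for NDWT and 888 ± 31.2 for NDKO, against 941 ± 48.7 for HFWT and 936 ± 41.9 for HFKO (SD, n = 5). Abcd3 made up 23.3% (NDWT) and 20.5% (NDKO) of it on control diet but 10.5% (HFWT) and 11.9% (HFKO) on CDAHFD.

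**Figure D1:**
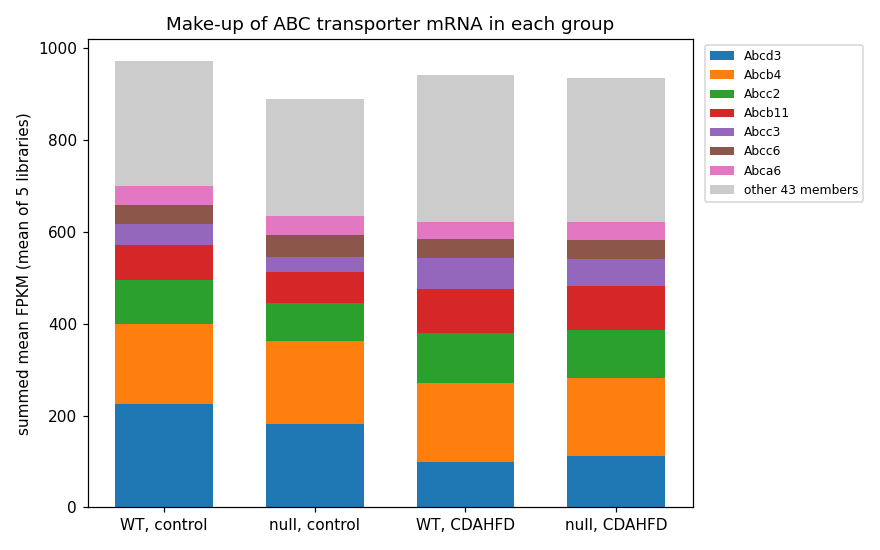
Stacked bars give the mean FPKM (5 libraries a group, y axis) of the 7 members with the highest NDWT mean and of the other 43 together, by group (x axis). The blue Abcd3 segment is shorter on CDAHFD (98.5 in HFWT against 226 FPKM in NDWT), while Abcb4 lies between 170.2 and 179.5 FPKM in all groups.

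Diet moved a large part of the transcriptome, which sets the background for every count below. A gene is called here at a Benjamini-Hochberg FDR under 0.05 and an absolute log2 fold change above 0.58 on the log2(FPKM + 0.1) scale, in limma fits over 14524 genes. In WT, 18 of the 40 tested members were called between CDAHFD and control diet, 16 higher and 2 lower, against 48.8% of all genes tested, of which 44.1% higher and 4.62% lower. In libraries labelled TSP-1 null 18 were called, 17 higher and 1 lower, against 45.9% (41.9% higher and 4.00% lower). The groups did not overlap for 17 members in WT (56.2% of all genes) and for 22 in TSP-1 null (57.8%). The shares of members called were thus close to the background. The median log2 fold change of the members was 0.30 in WT and 0.43 in TSP-1 null, below the medians of all genes tested of 0.53 and 0.50. FPKM fixes each library's total. When the libraries were scaled so that the median gene stays level (median of ratios), the WT calls split into 10 higher and 8 lower. The TSP-1 null calls split into 12 higher and 8 lower. Of all 14524 genes tested, that scaling called 37.8% in WT (3351 higher and 2145 lower) and 35.8% in TSP-1 null (3283 and 1921). Quantile scaling, which gives every library the same distribution, left 12 calls in each genotype, 6 higher and 6 lower in WT, and in TSP-1 null 8 higher and 4 lower. Of all genes tested it called 34.9% in WT (2514 higher and 2562 lower) and 31.7% in TSP-1 null (2421 and 2186). A change is therefore described below together with its value under median of ratios and quantile scaling where these alter the call.

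Abcb1a, Abcc1, Abcc4, Abcc5, Abcc12 and Abcg1 rose and Abcd3 fell on CDAHFD in both genotypes under all 3 scalings, and Abcg2 fell in WT under all 3. The filter favoured a rise of Abcb1a, Abcc1, Abcc4 and Abcc12, and genes called under all 3 scalings were not counted over the whole table. Abca2 rose under all 3 in TSP-1 null only, while in WT quantile scaling left it uncalled (0.58); the difference between genotypes was not called (interaction 0.09, FDR 0.892). Markers of other cell types rose with the diet too: the summed level of the 6 macrophage markers found was 186 to 252.003 FPKM in NDWT and 1165 to 1598 in HFWT, that of 5 cholangiocyte markers 6.72 to 9.30 and 33.4 to 60.1, and that of 7 stellate cell markers 11.3 to 16.7 and 109.8 to 245. In HFKO these sums were 727 to 1553, 28.1 to 47.6 and 99.6 to 192 FPKM, with no marker at 0 in any group. In WT 4 of the 6 macrophage markers were called higher and 1 lower, and 5 and 1 in TSP-1 null, while all 5 cholangiocyte and all 7 stellate cell markers were called higher in both. Of the other lists, 4 of 5 T cell, 3 of 3 B cell and 2 of 2 tested neutrophil markers were called higher in both genotypes, 1 (WT) and 2 (TSP-1 null) of 6 endothelial markers were called higher, 1 and 2 of 3 erythroid and 1 and 3 of 7 hepatocyte markers were called lower, and the 1 tested pancreatic acinar marker was not called. The part of these cells in the changes below was not tested, and in bulk liver fewer cells of a type and less RNA per cell cannot be told apart.

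**Figure D2:**
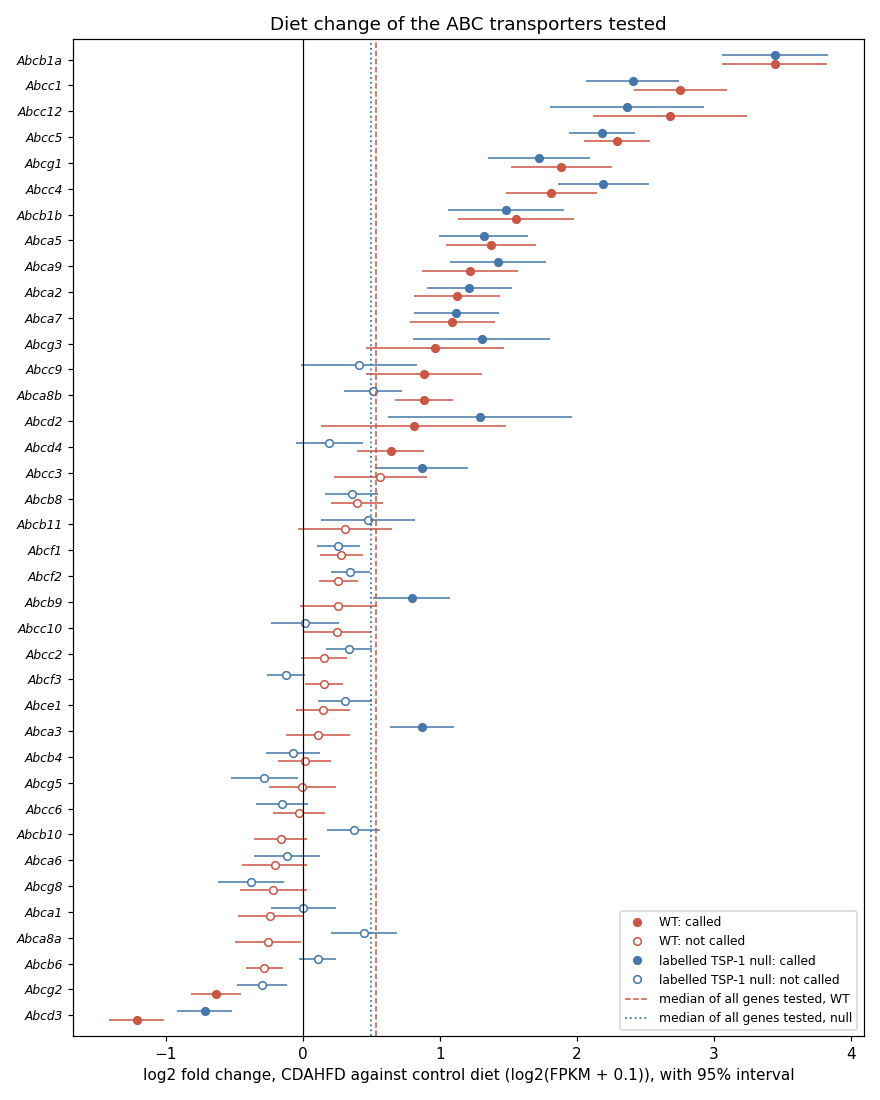
Points give the log2 fold change between CDAHFD and control diet (x axis, log2(FPKM + 0.1) scale) of 38 of the 40 tested members (y axis, ordered by the WT value), with 95% intervals, in WT (red) and in libraries labelled TSP-1 null (blue). Filled points were called. Abcb1a lies farthest right in both (3.44 and 3.45) and Abcd3 farthest left (-1.21 and -0.71), and the broken lines mark the medians of all genes tested.

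The bases before the start site are shown for 3 exporters, together with the stretch between the Abcg5 start and 1 of the Abcg8 starts. The 3 are Abcc4 (called higher with diet) and the canalicular Abcb11 and Abcb4 (not called with diet as deposited). They come from RefSeq, build GRCm38.p6, which had windows for 38 of the 50 members (45 windows). Each is written 5′ to 3′ on the strand of the gene, and the Abcg5-Abcg8 stretch on the plus strand. Capitals mark matches, on either strand, to 6 short motifs. CCAAT was found in 33.8% of all 32851 such windows and in 28.9% of the 45 member windows, GGGCGG (the GC box) in 32.7% and 44.4%, TATAAA in 12.4% and 11.1%, CACGTG (an E-box) in 6.02% and 11.1%, AGGTCA (a nuclear receptor half-site) in 14% and 15.6%, and TGACNNNGC (the antioxidant response core) in 10.2% and 8.89%. A window is 250 bases here, and a match describes letters only.
Abcc4, chr14:118706220-118706469, minus strand: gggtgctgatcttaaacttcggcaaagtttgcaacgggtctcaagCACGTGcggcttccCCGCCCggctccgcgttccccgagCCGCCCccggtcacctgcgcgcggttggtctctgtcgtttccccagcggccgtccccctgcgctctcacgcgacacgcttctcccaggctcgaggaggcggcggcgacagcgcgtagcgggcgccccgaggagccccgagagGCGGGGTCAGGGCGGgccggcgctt
Abcb11, chr2:69342617-69342866, minus strand: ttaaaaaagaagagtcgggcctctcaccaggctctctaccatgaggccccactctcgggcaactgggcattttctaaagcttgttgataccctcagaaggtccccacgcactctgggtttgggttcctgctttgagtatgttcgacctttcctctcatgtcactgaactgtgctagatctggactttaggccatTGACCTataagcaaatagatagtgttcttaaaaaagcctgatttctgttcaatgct
Abcb4, chr5:8893471-8893716, plus strand, without the last 4 bases, which lie in an annotated exon: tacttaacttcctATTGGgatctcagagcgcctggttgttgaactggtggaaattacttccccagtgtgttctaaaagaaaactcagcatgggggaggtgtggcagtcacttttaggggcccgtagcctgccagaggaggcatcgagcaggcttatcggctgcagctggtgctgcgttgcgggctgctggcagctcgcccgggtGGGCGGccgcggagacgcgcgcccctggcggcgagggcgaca
Between the Abcg5 start and the nearer Abcg8 start, chr17:84683012-84683120, plus strand: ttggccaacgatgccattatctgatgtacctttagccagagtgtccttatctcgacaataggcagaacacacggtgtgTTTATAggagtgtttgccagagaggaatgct
Abcc4 holds a TGACNNNGC match on the opposite strand at -25 to -17, directly before a GC box at -16 to -11, and farther out 2 more GC boxes and an E-box. Another Abcc4 window, chr14:118676932-118677181, is not shown and holds a TGACNNNGC match at -23 to -15. Abcb11 holds 1 half-site at -56 to -51. Abcb4 holds a CCAAT match at -237 to -233 and a GC box at -46 to -41. RefSeq holds 2 Abcg8 starts, 1 of them inside Abcg5. The other lies on the opposite strand, with 109 bases between it and the Abcg5 start. The single TATAAA match in between is read on the minus strand, the strand of Abcg5. In the deposited table the spans of the 2 genes overlap on opposite strands, and the strand setting of the counting is not given in the sources used here, so reads from the overlap may not be told apart.

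Among the canalicular exporters, the bile salt and anion pumps were not called with diet, the P-glycoprotein genes rose from low levels and Abcg2 fell. Abcb11 (ENSMUSG00000027048.9, chr2:69238282-69342616, GRCm38), the bile salt export pump, measured 80.6, 83.4, 73.7, 64.7 and 71.5 FPKM in the 5 NDWT libraries and 139, 85.2, 84.7, 79.3 and 83.9 in HFWT. In the libraries labelled TSP-1 null it measured 66.8, 70.2, 63.9, 58.3 and 77.4 FPKM (NDKO) and 124, 78.6, 88.1, 122 and 66.8 (HFKO). HFWT replicate 1 and HFKO replicates 1 and 4 stood above all others, and the diet groups overlapped in both genotypes. The log2 fold change was 0.31 ± 0.16 (SE; FDR 0.0982) in WT and 0.47 ± 0.16 (FDR 0.0144) in TSP-1 null, under the fold limit in both. Without HFKO replicate 5, the lowest of its group, the TSP-1 null value was 0.59 and was called. Abcc2 (ENSMUSG00000025194.4, chr19:43782192-43837951), the exporter of bilirubin and drug conjugates, measured 97.8, 85.7, 92.9, 109 and 103 FPKM in NDWT and 108, 108, 104, 106 and 117 in HFWT. In NDKO it measured 73.9, 84.2, 79.8, 80.4 and 101 and in HFKO 101, 110.2, 94.96, 116 and 106. The groups overlapped, and the changes of 0.16 and 0.34 (FDR 0.0836 and 0.000861) stayed under the fold limit under every scaling.

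Abcg2 (ENSMUSG00000029802.7, chr6:58584523-58692869), the breast cancer resistance protein, which exports urate, porphyrins and drugs, was one of 2 members called lower in WT. Its FPKM were 22.8, 25.4, 25.2, 24.0 and 24.9 in NDWT and 14.2, 16.8, 18.2, 14.3 and 15.6 in HFWT, with no overlap. They were 13.1, 15.5, 17.4, 16.7 and 13.9 in NDKO and 11.7, 13.8, 12.2, 11.05 and 13.3 in HFKO, where the ranges overlapped. The NDWT group was thus the high one, and the other 3 lay at or under 18.2. The log2 fold change with diet was -0.63 ± 0.087 in WT (FDR 2.23e-06) and -0.30 ± 0.087 in TSP-1 null (FDR 0.00487, not called for its size). With median of ratios the TSP-1 null value was -0.81 and with quantile scaling -0.69, both called lower. The difference between the genotypes in the diet change was 0.34 and did not pass (FDR 0.188).

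Abcb1a and Abcb1b encode the mouse P-glycoproteins, multidrug exporters of the canaliculus and of many other cells, and lie with Abcb4 in 1 run on chromosome 5, with gaps of 49.6 and 27.4 kb. Abcb1a (ENSMUSG00000040584.8, chr5:8660077-8748575) measured 0.478, 0.437, 0.308, 0.181 and 0.375 FPKM in NDWT (17 to 61 fragments a library) and 5.61, 4.69, 3.96, 4.13 and 5.41 in HFWT (440 to 551 fragments). In NDKO it measured 0.177, 0.153, 0.283, 0.285 and 0.298 and in HFKO 3.61, 2.92, 3.37, 4.16 and 3.73. Every CDAHFD library exceeded every control library by a wide margin. On the log2(FPKM + 0.1) scale this was the largest diet change of any tested member in each genotype, 10.9-fold in WT (log2 3.44 ± 0.18, FDR 7.21e-12) and 10.9-fold in TSP-1 null (3.45 ± 0.18, FDR 1.04e-11). In WT the rank rests on the 0.1 added: mean FPKM went from 0.356 to 4.76 for Abcb1a and from 0.0498 to 0.886 for Abcc12. Abcb1b (ENSMUSG00000028970.5, chr5:8798147-8866314) measured 0.287, 0.372, 0.285, 0.309 and 0.346 in NDWT and 1.57, 1.04, 1.37, 0.669 and 1.21 in HFWT, and 0.301, 0.172, 0.197, 0.317 and 0.433 in NDKO and 0.855, 0.883, 0.921, 1.013 and 1.06 in HFKO. It was called higher in both genotypes (1.56 ± 0.20 and 1.49 ± 0.20, FDR 1.12e-06 and 2.21e-06), but under quantile scaling the values were 0.42 and 0.42 and no longer called. The paralogs share sequence: 21.7% of the 31-base words of the Abcb1a transcripts also occur in those of Abcb1b and 4.02% in those of Abcb4, so some fragments could be split between them and the separate levels of the pair are uncertain.

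Of the phospholipid transporters, Abcb4 was not called with diet, Abca7 rose, and Abca3 was called in TSP-1 null and not in WT. Abcb4 (ENSMUSG00000042476.8, chr5:8893721-8959225), the floppase that puts phosphatidylcholine into bile, measured 181, 146, 169, 195 and 169.7 FPKM in NDWT and 189, 175, 164, 157 and 182 in HFWT. It measured 185, 182, 202, 187 and 142 in NDKO and 159, 171, 153, 174 and 193 in HFKO. All groups overlapped, and Abcb4 was the member with the highest mean level on CDAHFD in both genotypes. The 95% interval of its log2 fold change ran from -0.18 to 0.21 in WT and from -0.27 to 0.12 in TSP-1 null, whereas the median gene stood at 0.53 and 0.50. With median of ratios the values became -0.53 (not called) and -0.59 (called lower), and with quantile scaling 0.11 and -0.012 (neither called).

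Abca7 (ENSMUSG00000035722.9, chr10:79996494-80015572), a phospholipid transporter linked to phagocytosis, measured 2.12, 1.94, 1.65, 1.67 and 1.54 FPKM in NDWT and 4.51, 4.26, 3.29, 4.76 and 2.96 in HFWT. It measured 1.35, 1.94, 1.91, 1.58 and 1.49 in NDKO and 3.76, 2.92, 3.89, 3.28 and 4.85 in HFKO. The diet groups did not overlap in either genotype, and the changes were 1.09 ± 0.15 in WT and 1.12 ± 0.15 in TSP-1 null (FDR 2.16e-06 and 1.71e-06). Under quantile scaling they fell to 0.30 and 0.39 and were not called, and under median of ratios only that in TSP-1 null was (0.62). Abca3 (ENSMUSG00000024130.9, chr17:24351950-24410201), which loads phospholipid into the lamellar bodies of lung, measured 7.68, 6.92, 7.11, 5.995 and 5.50 FPKM in NDWT and 6.81, 7.65, 7.45, 6.67 and 7.17 in HFWT. It measured 5.23, 6.41, 5.59, 4.25 and 6.16 in NDKO and 11.4, 9.53, 8.23, 10.97 and 10.6 in HFKO. The 5 HFKO libraries lay above all 15 others. The change was 0.11 ± 0.11 in WT (FDR 0.374) and 0.87 ± 0.11 in TSP-1 null (FDR 1.15e-06), where neither other scaling called it (0.36 and 0.35). The fourth member of this class, Abca4, the retinal lipid flippase, was at most 0.057 FPKM and was not tested.

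Among the sterol exporters Abcg1 rose and the others did not pass. Abcg5 (ENSMUSG00000040505.7, chr17:84658234-84683011) and Abcg8 (ENSMUSG00000024254.9, chr17:84676302-84700333) form the heterodimer that secretes cholesterol and plant sterols into bile. Abcg5 measured 31.9, 25.4, 25.9, 30.1 and 22.8 FPKM in NDWT and 22.0, 25.0, 26.0, 29.7 and 33.4 in HFWT, and 30.6, 29.2, 27.9, 28.6 and 39.3 in NDKO and 24.9, 25.8, 22.3, 28.9 and 25.5 in HFKO. Abcg8 measured 29.4, 24.8, 20.1, 23.3 and 21.8 in NDWT and 18.9, 18.1, 17.9, 24.5 and 23.6 in HFWT, and 23.9, 27.0, 25.5, 21.2 and 30.1 in NDKO and 19.9, 19.2, 16.6, 20.6 and 21.5 in HFKO. Diet groups overlapped for both genes. Their log2 fold changes were -0.0033 ± 0.12 and -0.21 ± 0.12 in WT (FDR 0.981 and 0.102) and -0.28 ± 0.12 and -0.38 ± 0.12 in TSP-1 null (FDR 0.0384 and 0.00653), all under the fold limit. Relative to the median gene they stood lower: with median of ratios Abcg8 was called lower in WT (-0.75) and both were called lower in TSP-1 null (-0.80 and -0.90), where quantile scaling called Abcg8 too (-0.70). Both levels are uncertain where the genes overlap, and since their products form 1 heterodimer their ratio was compared directly. The log2 ratio of Abcg5 to Abcg8 was 0.19 ± 0.16 in NDWT, 0.40 ± 0.14 in HFWT, 0.28 ± 0.15 in NDKO and 0.38 ± 0.095 in HFKO (SD, n = 5), and in WT the diet groups differed by 0.21 (two-sided exact permutation test, p = 0.0635, 0.317 adjusted over 8 such tests). The log2 ratio of Abcb4 to Abcb11, of phospholipid to bile salt exporter, was 1.201 ± 0.28 in NDWT, 0.91 ± 0.27 in HFWT, 1.41 ± 0.33 in NDKO and 0.86 ± 0.47 in HFKO (SD, n = 5). None of the 4 comparisons of it passed, the smallest exact p being 0.0794 for a difference of -0.55 with diet in TSP-1 null (0.317 adjusted).

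Abcg1 (ENSMUSG00000024030.6, chr17:31057698-31115777), which moves cholesterol to high-density lipoprotein and is prominent in macrophages, measured 2.81, 3.79, 3.21, 2.68 and 3.12 FPKM in NDWT and 13.8, 11.8, 13.2, 9.39 and 11.1 in HFWT. It measured 3.72, 2.46, 3.38, 2.63 and 3.00 in NDKO and 8.40, 9.29, 10.8, 7.40 and 17.1 in HFKO. All CDAHFD libraries lay above all control libraries, with HFKO replicate 5 the highest. The rise of FPKM + 0.1 was 3.70-fold in WT (log2 1.89 ± 0.18, FDR 1.45e-08) and 3.30-fold in TSP-1 null (1.72 ± 0.18, FDR 5.82e-08), and it was called under all 3 scalings. The macrophage markers had the ranges given above and their part in it was not tested. Abca1 (ENSMUSG00000015243.4, chr4:53030787-53159895), which passes cholesterol and phospholipid to lipid-poor apolipoprotein A-I, measured 23.5, 25.5, 28.2, 20.1 and 23.9 in NDWT and 20.4, 20.3, 20.8, 19.8 and 20.8 in HFWT, and 17.9, 17.8, 19.3, 19.9 and 26.5 in NDKO and 21.2, 21.8, 20.2, 15.4 and 23.0 in HFKO. The HFWT libraries lay close together, and all groups overlapped. Its changes were -0.24 (FDR 0.0659) and 0.0047 (FDR 0.973), and with median of ratios the WT value was called lower (-0.78). Abcg4, the relative of Abcg1 found in brain, was at most 0.139 FPKM and was not tested.

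**Figure D3:**
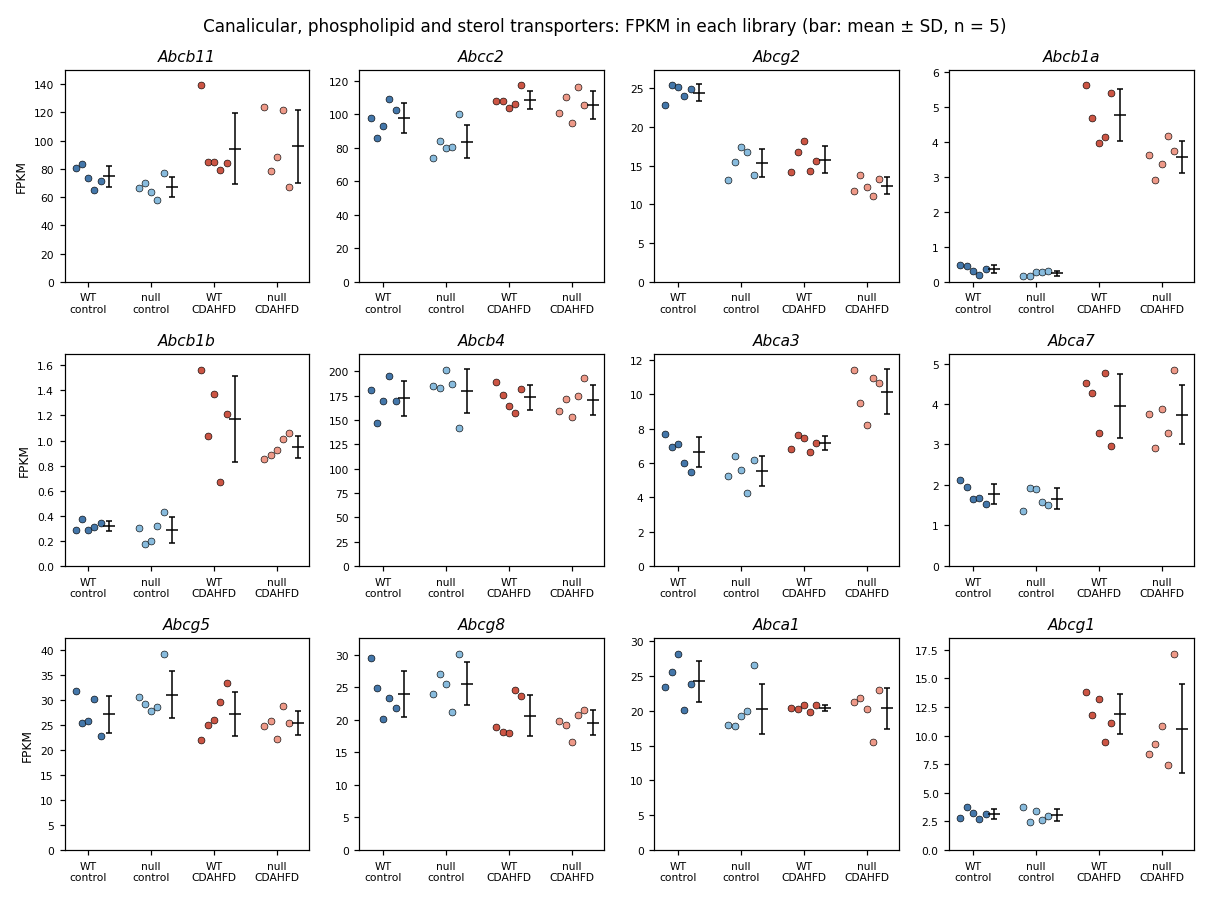
Each panel gives the FPKM (y axis, linear, from 0) of 1 canalicular, phospholipid or sterol transporter in every library, by group (x axis), with bars for the mean and SD of 5 libraries. The CDAHFD libraries of Abcb1a, Abcb1b, Abca7 and Abcg1 lie above all control libraries, Abcb4 and Abca1 overlap in all groups, and Abca3 is highest in HFKO (8.23 to 11.4).

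The basolateral and intracellular exporters of subfamily C held 4 of the 6 members that rose under all 3 scalings in both genotypes. Of these 4, Abcc1, Abcc4 and Abcc12 had 0, 4 and 0 control libraries above 0.5 FPKM, so the filter favoured their rise. How many of all genes rose under all 3 scalings was not counted. Abcc1 (ENSMUSG00000023088.10, chr16:14361558-14475737), an exporter of glutathione conjugates and leukotrienes, measured 0.278, 0.344, 0.304, 0.306 and 0.28 FPKM in NDWT and 3.07, 2.55, 2.43, 2.67 and 2.40 in HFWT. It measured 0.364, 0.281, 0.268, 0.309 and 0.256 in NDKO and 1.96, 2.05, 2.31, 1.19 and 2.81 in HFKO. The lowest CDAHFD library stood well above the highest control library, and the rise was 6.76-fold in WT and 5.31-fold in TSP-1 null (FDR 2.52e-11 and 1.97e-10). Abcc4 (ENSMUSG00000032849.7, chr14:118482692-118706219), a basolateral exporter of bile acid conjugates and cyclic nucleotides, measured 0.48, 0.533, 0.765, 0.59 and 0.674 in NDWT and 2.46, 2.93, 1.86, 2.65 and 2.07 in HFWT. It measured 0.499, 0.292, 0.448, 0.382 and 0.389 in NDKO and 1.98, 2.12, 1.70, 2.36 and 2.86 in HFKO. Its groups did not overlap either, and it rose by log2 1.81 ± 0.16 in WT and 2.19 ± 0.16 in TSP-1 null (FDR 5.93e-09 and 5.35e-10).

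Abcc5 (ENSMUSG00000022822.9, chr16:20331303-20426394), an exporter of cyclic nucleotides and other organic anions, measured 0.884, 0.871, 0.976, 0.924 and 0.942 FPKM in NDWT and 5.32, 4.97, 4.61, 5.18 and 4.46 in HFWT. It measured 0.874, 0.711, 0.798, 0.75 and 0.7 in NDKO and 3.57, 3.48, 3.97, 3.06 and 5.43 in HFKO. The diet groups did not overlap in either genotype, and the rise of FPKM + 0.1 was 4.91-fold in WT and 4.55-fold in TSP-1 null (log2 2.29 ± 0.12 and 2.18 ± 0.12, FDR 3.42e-12 and 8.82e-12). Abcc12 (ENSMUSG00000036872.10, chr8:86482260-86580686) was nearly absent on control diet, with 0.045, 0.018, 0.084, 0.079 and 0.023 FPKM in NDWT (2 to 10 fragments) and 0.066, 0.099, 0.008, 0.066 and 0.022 in NDKO (1 to 15 fragments). On CDAHFD it measured 1.02, 0.622, 0.808, 1.39 and 0.591 in HFWT and 0.681, 0.923, 0.384, 0.73 and 0.718 in HFKO, or 46 to 184 fragments a library. The groups did not overlap, and the gene rose by log2 2.68 ± 0.27 (WT) and 2.37 ± 0.27 (TSP-1 null; FDR 3.62e-08 and 2.23e-07). The size depends on the pseudocount, being 0.83 in WT with 1 in place of 0.1 and 4.00 with 0.01.

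Of the other 3 members of subfamily C that export organic anions, Abcc3, the basolateral exporter of glucuronides and bile salts, had means of 46.5 ± 4.61 (NDWT), 69.0 ± 8.38 (HFWT), 32.0 ± 9.09 (NDKO) and 57.6 ± 12.4 FPKM (HFKO; SD, n = 5). The diet groups did not overlap in either genotype. Its WT change of 0.57 (FDR 0.0041) lay just under the fold limit, and that of 0.87 in TSP-1 null (FDR 9.28e-05) was called, except with median of ratios (0.35). Without any 1 of NDWT replicates 1, 4 or 5 or HFWT replicates 4 or 5 the WT value passed the limit, with values from 0.58 to 0.63. Abcc6, which mediates release of ATP from hepatocytes, had means from 41.4 FPKM in HFWT to 47.6 in NDKO and was called only in TSP-1 null with median of ratios, as lower with diet (-0.67 against -0.15 as deposited). Abcc10 had means from 3.16 to 3.80 FPKM and was called only in TSP-1 null with quantile scaling, as lower (-0.65 against 0.017 as deposited). Of the sulfonylurea receptors, which regulate potassium channels, Abcc9 had 4.21 to 5.80 FPKM in NDWT and 4.37 to 13.0 in HFWT, where replicate 4 was the low library and the other 4 lay at 10.2 or above. It was called higher in WT (0.89 ± 0.20, FDR 0.000616) although the groups overlapped through that library, and under neither other scaling (0.35 and 0.33). In TSP-1 null its change was 0.41 (FDR 0.0771). The interaction of -0.48 (FDR 0.458) became -0.75 and was called lower without HFWT replicate 4 (FDR 0.0256). Abcc8 was at most 0.04 FPKM and was not tested.

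Of the peroxisomal transporters, Abcd3 fell with diet and Abcd2 was called higher on the deposited scale. Abcd3 (PMP70, ENSMUSG00000028127.5, chr3:121758909-121815302), which brings branched-chain acyl-CoAs and bile acid precursors into peroxisomes, had means of 226 ± 13.2 FPKM (range 213 to 243) in NDWT and 98.5 ± 15.5 (79.2 to 114) in HFWT. In NDKO the mean was 182 ± 18.2 (155 to 202) and in HFKO 111 ± 8.40 (103 to 120.1). No CDAHFD library reached the lowest control library. Abcd3 fell by 1.21 on the log2 scale in WT (SE 0.096, FDR 1.4e-09) and by 0.71 in TSP-1 null (FDR 1.89e-06), and it had the highest mean of any member on control diet, though in NDKO its range overlapped that of Abcb4 (142 to 202). Abcd2, another peroxisomal carrier of fatty acyl-CoAs, had 3.32 to 6.98 FPKM in NDWT, 3.10 to 14.7 in HFWT, 3.93 to 9.95 in NDKO and 11.01 to 16.6 in HFKO. HFWT replicate 1 was the low library, below the lowest NDWT library. The changes of 0.81 ± 0.32 (FDR 0.0298) and 1.29 ± 0.32 (FDR 0.00136) were called, the first not without NDWT replicate 2 or 4 or HFWT replicate 2, 4 or 5, where it was 0.63 to 0.77, and neither under another scaling (in WT 0.28 and 0.24, in TSP-1 null 0.78 and 0.80).

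**Figure D4:**
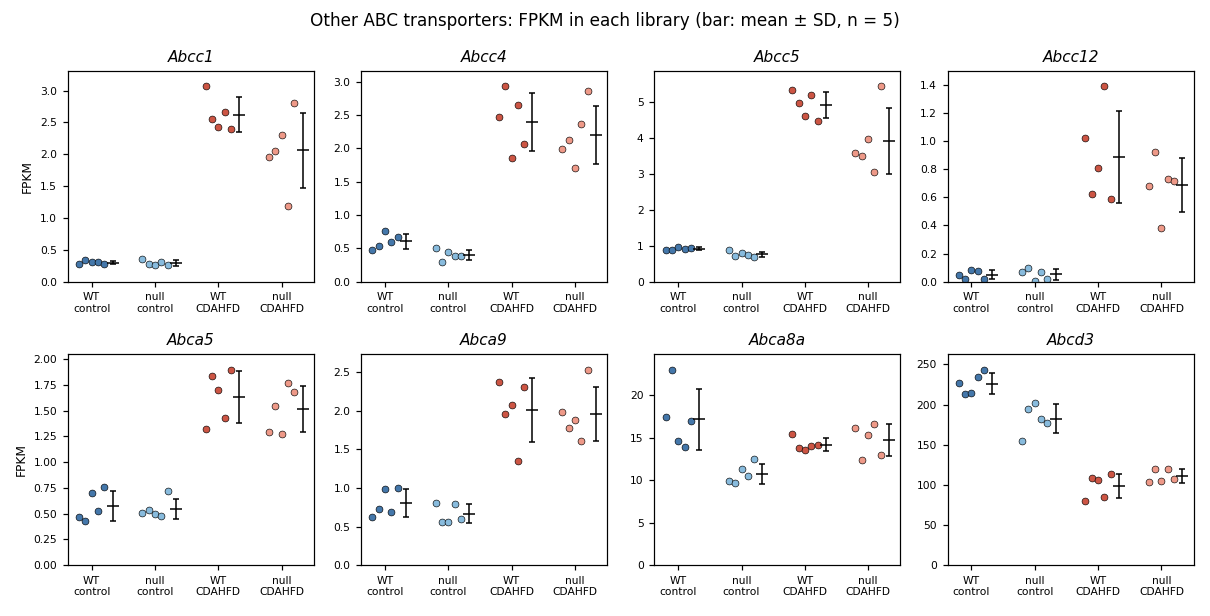
Each panel gives the FPKM (y axis, linear, from 0) of 1 member in every library by group (x axis), with bars for the mean and SD of 5 libraries. The CDAHFD libraries of Abcc1, Abcc4, Abcc5, Abcc12, Abca5 and Abca9 lie above all control libraries, those of Abcd3 below, and Abca8a is lowest in NDKO (9.63 to 12.4).

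Subfamily A holds a run of 5 neighbours on chromosome 11, Abca8b, Abca8a, Abca9, Abca6 and Abca5, all on the minus strand with gaps of 4.8 to 29.8 kb, and not all of them were called. Abca5 (ENSMUSG00000018800.8, chr11:110269369-110337716), a lysosomal and endosomal member, measured 0.47, 0.43, 0.698, 0.525 and 0.758 FPKM in NDWT and 1.32, 1.84, 1.70, 1.43 and 1.90 in HFWT. It measured 0.508, 0.539, 0.491, 0.476 and 0.718 in NDKO and 1.29, 1.55, 1.27, 1.77 and 1.68 in HFKO. The diet groups did not overlap, and it was called higher in both genotypes (1.37 ± 0.16 and 1.32 ± 0.16, FDR 1.96e-07 and 3.65e-07). Abca9 (ENSMUSG00000041797.7, chr11:110100749-110168196) measured 0.619, 0.73, 0.991, 0.688 and 1.00 in NDWT and 2.38, 1.96, 2.08, 1.34 and 2.31 in HFWT. It measured 0.807, 0.563, 0.565, 0.793 and 0.602 in NDKO and 1.99, 1.78, 1.88, 1.61 and 2.54 in HFKO. Here too the groups stood apart (1.22 ± 0.17 and 1.42 ± 0.17, FDR 2.42e-06 and 3.61e-07). Both were called with median of ratios and not with quantile scaling (0.35 and 0.24 in WT, 0.40 and 0.54 in TSP-1 null). Abca8b was called higher in WT (0.89, means 7.06 and 13.1 FPKM), though not under either other scaling (0.35 and 0.41), and not in TSP-1 null (0.51, or 0.59 and called without HFKO replicate 3). Abca6, the most abundant of the 5, had means from 35.1 FPKM in HFWT to 42.6 in NDKO and was called only with median of ratios, as lower in both genotypes (-0.75 and -0.64). Abca8a shares 2.89% of its 31-base words with Abca8b, the largest share within the run. Outside the run, Abca2, a lysosomal member, had means of 4.83 and 4.60 FPKM on control diet and 10.7 and 10.8 on CDAHFD and was called in both genotypes (1.13 and 1.22).

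The mitochondrial and the soluble members gave no diet call on the deposited scale. Mean levels of Abcb6, Abcb8 and Abcb10, mitochondrial members of which Abcb6 and Abcb10 are linked to porphyrin and heme handling, lay between 5.12 FPKM (Abcb10 in NDKO) and 17.4 (Abcb6 in NDWT), with log2 fold changes from -0.28 (Abcb6) to 0.40 (Abcb8) in WT and from 0.11 (Abcb6) to 0.37 (Abcb10) in TSP-1 null. Abce1, which recycles ribosomes, and Abcf1, Abcf2 and Abcf3, which have no membrane domain and act in translation, had log2 fold changes of 0.15 to 0.28 in WT and of -0.12 to 0.35 in TSP-1 null. With median of ratios Abcb6 and Abcb10 were called lower in WT (-0.82 and -0.69, also with quantile scaling) and Abcf3 in TSP-1 null (-0.64). Of the lysosomal pair, Abcd4, needed for vitamin B12 export, was called in WT (0.64) and not in TSP-1 null (0.19), and Abcb9, a peptide transporter, in TSP-1 null (0.79) and not in WT (0.26). Neither difference between genotypes passed (interaction FDR 0.194 and 0.181), and neither diet call held with median of ratios (0.11 and 0.34) or quantile scaling, where the signs turned (-0.009 and -0.17) and Abcb9 was called lower in WT (-0.89). Abcg3, a rodent relative of Abcg2, was called higher in both genotypes (0.96 and 1.305, means from 0.816 to 2.26 FPKM), with quantile values of 0.012 and 0.44 that were not called, nor was the WT value with median of ratios (0.46).

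**Figure D5:**
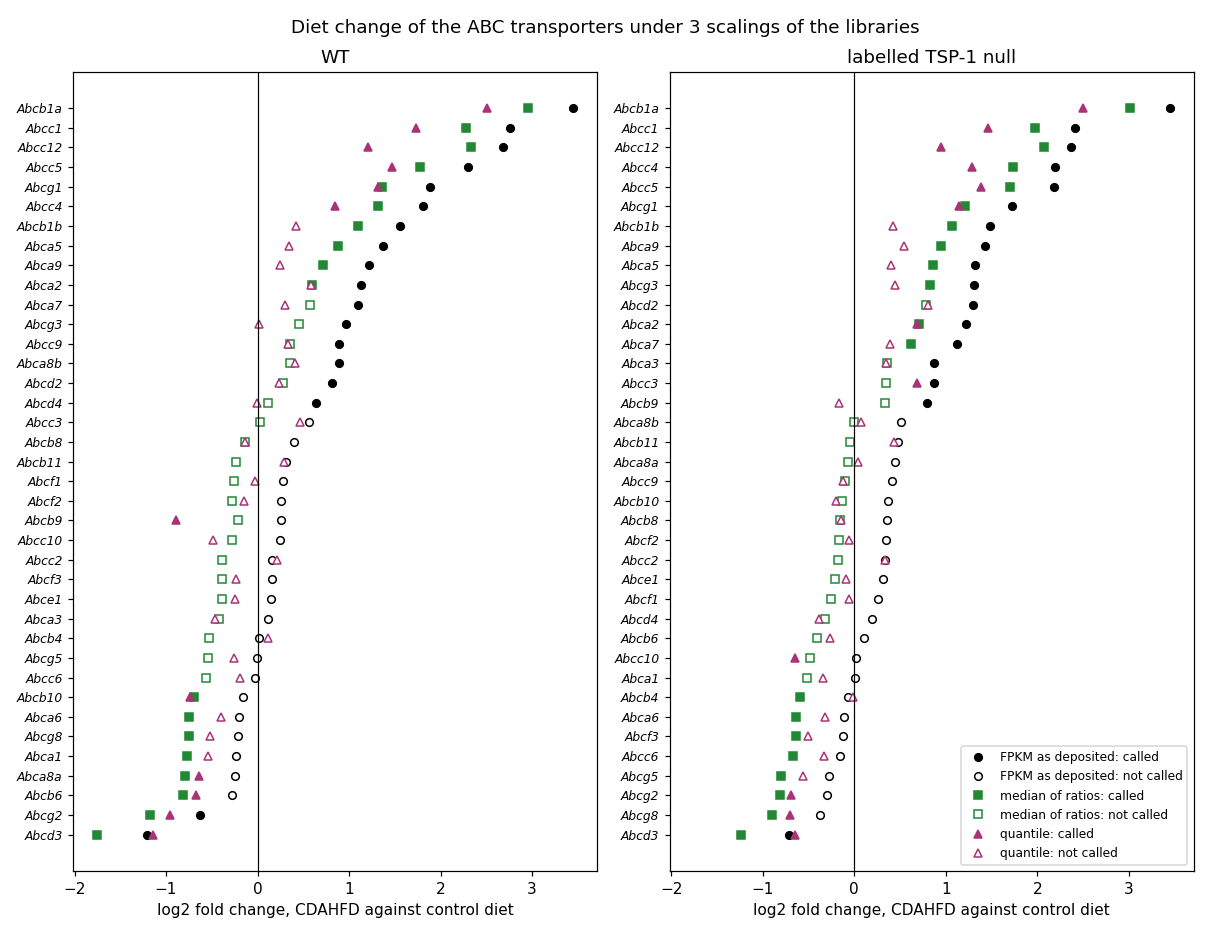
Points give the log2 fold change with diet (x axis) of 38 of the 40 tested members (y axis) in WT (left) and in libraries labelled TSP-1 null (right) for FPKM as deposited (circles), median of ratios (squares) and quantile normalization (triangles); filled points were called. Abcb1a, Abcc1, Abcc4, Abcc5, Abcc12 and Abcg1 on the right and Abcd3 on the left are filled in all 3, and the middle of the list crosses 0.

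Genotype differences were few. On control diet 2 of the 40 tested members were called, both lower in libraries labelled TSP-1 null, against 4.77% of all genes tested (3.03% lower), and 6 did not overlap (9.03%). Abcg2 was the first, with the libraries given above: every NDKO library lay under every NDWT library, and the log2 difference was -0.68 ± 0.087 (FDR 8.05e-05). Abca8a (ENSMUSG00000041828.9, chr11:110025634-110095978), a lipid transporter of the chromosome 11 run, measured 17.4, 23.0, 14.6, 13.8 and 16.9 FPKM in NDWT and 9.89, 9.63, 11.3, 10.5 and 12.4 in NDKO. The groups did not overlap, and the difference was -0.66 ± 0.12 (FDR 0.00137). Without NDWT replicate 2, its highest library, it was -0.54 and under the fold limit. With quantile scaling both were -0.56, also under the limit. Abcc3 was at the limit (-0.58 ± 0.16, FDR 0.024), and it was called lower without NDWT replicate 2 or 3 or NDKO replicate 2 or 3, at -0.58 to -0.70. Abcb10, Abcc4, Abcd3 and Abca8b passed the FDR and not the fold limit (-0.51, -0.50, -0.31 and 0.35).

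On CDAHFD no member was called between the genotypes in limma, against 0.496% of all genes tested, with 8 members (20%) at an unadjusted p under 0.05, beside 17.2% of all genes, and 3 without overlap (4.98%). These 3 were Abca3, Abcg2 and Abcf3. Abca3 was higher in HFKO than in HFWT by 0.49 ± 0.11 (FDR 0.0374), short of the fold limit, and 1 member, Abca3, was called with each other scaling (0.59 with median of ratios and 0.62 with quantile). Abcg2 was lower by a log2 difference of -0.34 ± 0.087 (FDR 0.0625), in the direction seen on control diet, with HFWT at 14.2 to 18.2 and HFKO at 11.05 to 13.8 FPKM. Abcf3 differed by -0.23 (FDR 0.096).

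The diet change differed between the genotypes for 2 members in the interaction test, both positive, against 0.647% of all genes tested (0.337% positive). For Abca3 the log2 change with diet was larger in TSP-1 null by 0.76 ± 0.16 (FDR 0.0299). For Abca8a, 15.5, 13.8, 13.6, 14.0 and 14.1 FPKM in HFWT and 16.1, 12.4, 15.4, 16.6 and 13.0 in HFKO, it was more positive in TSP-1 null by 0.70 ± 0.16 (FDR 0.0492): the gene was low in NDKO, and the CDAHFD groups overlapped. Its own diet change was -0.25 in WT, called lower with median of ratios (-0.79) and quantile scaling (-0.64), and 0.45 in TSP-1 null, not called under any of the 3. Both interactions were called under all 3 scalings, but the calls depended on single libraries: Abca3 was called in 13 and Abca8a in 5 of the 20 fits that left out 1 library. Abca3 was not called without NDWT replicate 3, NDKO replicate 1 or 4, HFWT replicate 4 or HFKO replicate 1, 2 or 4, while its value stayed between 0.67 and 0.83. Abca8a was called only without NDWT replicate 2 or 4, NDKO replicate 5, HFWT replicate 1 or HFKO replicate 5, and its value ranged from 0.59 to 0.77. Abcb10 was called without HFWT replicate 1 or NDWT replicate 4 (0.59 and 0.60), and Abcc9 without HFWT replicate 4, as given above. With a replicate block the FDR of Abca8a was 0.0844.

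The partners of these transporters were read from lists of known genes. Of all genes tested, 44.1% were called higher and 4.62% lower with diet in WT. In TSP-1 null these shares were 41.9% and 4.00%. Of 12 transcription factors that regulate ABC transporters, 3 were called higher and 1 lower with diet in each genotype. Ppara, the fatty acid sensor that induces Abcd2 and Abcd3 among its targets, changed by -1.22 ± 0.14 in WT and -0.65 in TSP-1 null. Nfe2l2 (Nrf2), the oxidative stress factor, rose by 0.79 ± 0.089 and 1.04, and Ahr by 1.39 ± 0.16 and 0.71. Neither Nfe2l2 value was called with median of ratios (0.25 and 0.52), nor the WT value with quantile scaling (0.51), and Ahr in TSP-1 null was called under neither (0.19 and 0.26). With median of ratios 7 of the 12 were called lower and 1 higher in WT, and 5 lower and none higher in TSP-1 null. Of all 14524 genes tested, that scaling called 2145 lower and 3351 higher in WT, and 1921 lower and 3283 higher in TSP-1 null. On control diet Nfe2l2 was lower (-0.69) and Ahr higher (0.71) in TSP-1 null, under all 3 scalings. Of 10 tested canalicular partners, 1 was called higher in WT and 5 in TSP-1 null, and none lower. None of the 10 was called in the interaction. Under quantile scaling 1 was called higher and 1 lower in WT and 2 higher in TSP-1 null, and under median of ratios 1 higher and 2 lower in WT and 1 of each in TSP-1 null. Ezr, the membrane-actin linker also known from cholangiocytes, rose by 2.80 ± 0.16 and 2.60. Of 15 sterol partners, WT had 5 called higher and 2 lower and TSP-1 null had 6 and 2, with Soat1, which esterifies cholesterol in macrophages and many other cells, at 2.90 ± 0.16 and 2.61, Npc2, which hands on lysosomal cholesterol, at 1.67 and 1.41, and Lcat, the plasma cholesterol esterifier made by liver, at -0.79 and -0.48, the latter called lower only with median of ratios (-1.002). With median of ratios the sterol partners called lower numbered 7 in WT and 5 in TSP-1 null, beside 3 higher in each. With quantile scaling 2 were called lower and 3 higher in each. Of all genes tested, quantile scaling called 2562 lower and 2514 higher in WT, and 2186 lower and 2421 higher in TSP-1 null.

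Of 8 tested uptake and basolateral carriers, which face the blood side opposite the canalicular exporters, WT had 2 called higher and 3 lower and TSP-1 null had 1 and 3. Slc10a1 (Ntcp), the bile salt uptake carrier, changed by -1.302 ± 0.12 in WT and -0.76 in TSP-1 null, Slc22a7 by -2.21 and -2.08, and Slco1a1, an organic anion uptake carrier, by -2.98 and -2.70. All 3 fell, in both genotypes and under all 3 scalings. Other carriers had higher means on CDAHFD. Slc51b went from 0.222 to 3.10 FPKM in WT and from 0.276 to 3.07 in TSP-1 null. Its control libraries lay at 0 to 0.528 FPKM in NDWT and 0.11 to 0.405 in NDKO, so the filter favoured its rise. Slco1a4 went from 6.36 to 18.2 FPKM in WT and from 16.7 to 19.6 in TSP-1 null. The median over the 8 was -0.39 in WT and -0.36 in TSP-1 null, beside 0.53 and 0.50 over all genes tested. With median of ratios 5 of the 8 were called lower in each genotype, beside 2145 (WT) and 1921 (TSP-1 null) of the 14524 genes tested. Of the ABC proteins that carry other names, Tap2, a subunit of the peptide transporter for antigen presentation, rose by 1.23 and 1.23 (0.69 and 0.72 with median of ratios, both called), Tap1 was called in TSP-1 null (0.60) and not in WT (0.23; interaction FDR 0.521), under neither other scaling (0.086 and 0.10 in TSP-1 null), and Cftr did not pass the filter on low values. On control diet Tap1 was lower in TSP-1 null, with means of 11.2 FPKM in NDWT and 6.56 in NDKO (-0.74, FDR 0.00864), also under both other scalings (-0.67 and -0.63).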

How the data were processed

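Liver RNA of 20 mice was sequenced as paired-end, strand-marking libraries prepared from poly(A) RNA. The authors deposited 1 table of FPKM values, with 1 column per mouse and no pooling; the submitters' processing notes name STAR 2.5.2, featureCounts and Subread 1.5.1. The labels give a human build, but the identifiers and coordinates in the table are mouse GRCm38, and all 50 members overlap the same gene in GENCODE M21. The lobe of liver sampled is given differently in the series text and in the methods. Whole fragments were read from the steps of the FPKM values: at least 99.982% of the values that could be checked (at least 93.33% of a library) lay within 0.1 of a whole number. These depths were used only as a description.

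Groups were taken from the sample descriptions. Genes above 0.5 FPKM in at least 5 libraries were tested on log2(FPKM + 0.1) with limma 3.58.1 in R 4.3.3 (linear model over all 20 libraries, empirical Bayes moderation with trend, two-sided, Benjamini-Hochberg adjustment over all genes tested), and called at FDR under 0.05 and absolute log2 fold change above 0.58. Unless another pseudocount is named, every fold change given here is of FPKM + 0.1, which understates the change of low genes. The interaction is the diet change in TSP-1 null less that in WT. The 2 ratios were compared by exact permutation tests with scipy 1.17.1, and tables were handled with Python 3.11.15, pandas 2.3.3 and numpy 2.4.6. The fit was tested on simulated data. Comparisons share libraries, each group entering 2 of the simple ones. Replicates are separate mice, and intervals are 95% intervals over mice.

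Values in every library are given for tested canalicular, sterol and phospholipid members, for the 5 called members of other classes with the largest change in each comparison, and for members called in the interaction; others are given by mean or range, and those among them described in more detail, such as Abcd3, Abcd2, Abcc3 and Abcc9, were picked after their values were seen. The counts cover all members, but 2 tested members are not reported here singly. Of each partner list up to 3 called genes with the lowest FDR in WT are named. Slc51b and Slco1a4 were added after their values were seen. The members, classes and lists were chosen with earlier results of these data known. Alternatives were the pseudocount, the filter, the scaling between libraries, the fold limit, the groups in the fit, the trend, a replicate block and leaving out each library; a filter on the mean FPKM, and the scalings for the partner lists, were added after the data were seen.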

Additional observations from a re-analysis of the deposited data

Results flagged for a closer look

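In groups of 5 mice, 1 library stood apart from the other 4 in 5 of 84 sets (19 members and 2 ratios in 4 groups, Dixon's test at 95%); chance flags about 1 in 20 such sets. NDKO replicate 5 accounted for 3 of them. Its Abca1 level was 26.5 FPKM, with the other 4 at 17.8 to 19.9. Its Abcg5 level was 39.3 FPKM, with the others at 27.9 to 30.6. Its Abca5 level was 0.718 FPKM, with the others at 0.476 to 0.539. HFWT replicate 1 accounted for the other 2: its Abcb11 level was 139 FPKM, with the others at 79.3 to 85.2, and its log2 ratio of Abcb4 to Abcb11 was 0.44, with the others at 0.95 to 1.11.

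The diet change differed between the genotypes, by the interaction term in limma, for Abca3 (0.76 on the log2 scale, FDR 0.0299) and for Abca8a (0.70, FDR 0.0492), in both cases more positive in libraries labelled TSP-1 null. For Abca8a the diet change was -0.25 in WT and 0.45 in TSP-1 null, neither called as deposited. Abca3 kept its call in 13 and Abca8a in 5 of the 20 fits that left out 1 library.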

How the results depend on the processing

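Among the 19 members given in every library, no value that was called turned to a call in the other direction under any alternative tried. Outside them, Abcb9 in WT (0.26) and Abcc10 in TSP-1 null (0.017), neither called as deposited, were called lower with quantile normalization (-0.89 and -0.65). The diet counts of 18 in each genotype stayed within 1.5 times under every setting except 1: without the fold limit 31 members passed in TSP-1 null, beside 71.6% of all genes. The fewest were the 12 in each genotype with quantile normalization, beside 34.9% of all genes in WT and 31.7% in TSP-1 null. On CDAHFD the genotype count of 0 became 1 with median of ratios, quantile normalization or no fold limit (0.427%, 0.716% and 1.12% of all genes). On control diet the count of 2 became 4 with a pseudocount of 0.01, 0 with quantile normalization and 7 without the fold limit. Of all genes these settings called 5.51%, 3.32% and 13.1%. The interaction count of 2 became 1 with a pseudocount of 0.01, 0 with no filter on low values and 1 with eBayes without trend (0.613%, 0.211% and 0.551% of all genes). Abca8a was the member lost in each, and Abca3 too with no filter (FDR 0.051). Leaving out 1 library gave 17 to 20 calls for diet in WT and 18 to 19 in TSP-1 null. The calls numbered 2 to 3 for genotype on control diet, 0 to 0 on CDAHFD and 0 to 3 for the interaction. Of all genes, these fits called 47.1% to 49.9% for diet in WT and 44.3% to 46.9% in TSP-1 null. For genotype they called 3.72% to 5.34% on control diet and 0.263% to 0.582% on CDAHFD, and for the interaction 0.249% to 1.27%. The ratio differences did not pass under any pseudocount or without any library.

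With the replicate number as a block, the counts were 18, 18, 2 and 0, and the interaction count was 1, Abca8a being lost (FDR 0.0844). Of all genes, this fit called 48.9%, 45.9%, 4.66% and 0.42%, and 0.592% in the interaction. The numbers did not pair the samples: over 30 pairs of groups and numbers the correlation of deviations ran from -0.133 to 0.081 (median 0.0205), with 0 above 0.1. Depth limits the lowest members most, since Abcc12 rested on 1 to 15 fragments in control libraries.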
